A study of Mus musculus with 4 samples.

Results

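The collagen family was followed through small-intestinal crypt preparations of mice that were fed or fasted, without or with the antibiotic tetracycline. Its members were chosen by symbol alone, as Col, digits, a, digits (Col1a1, Col17a1 and the like). The rule found 43 of the 27425 genes that have a row in at least 1 of 2 tables. Of these, 40 lay among 25522 rows without and 42 among 26085 rows with tetracycline, and 39 were in both. Col10a1 was the 1 gene of this form among 44 in GENCODE mouse release 21 that had no row.

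The mice were male C57BL/6J animals aged 9 weeks, and the study asked how tetracycline, given against what is written only as AKK, changes expression in the fed and in the fasted state. The 4 labelled groups were fed without tetracycline, fasted for 24 hours without it, fed with 21 days of tetracycline, and fasted for 24 hours with those 21 days, and each has 1 labelled sample. Crypts, the pits of the gut lining that hold its stem cells, were shaken loose in a buffer with EDTA, broken into cells with trypsin, and labelled as epithelial cells. The authors deposited 1 table per tetracycline state that compares fasted with fed, and the values of 4 libraries, 2 fasted and 2 fed, could be recovered behind each mean. Libraries of a side are numbered by falling size factor, and the numbers pair nothing.

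Collagens are proteins of triple-helical chains that build the extracellular matrix. Types I, III and V form the fibrils of connective tissue, type VI forms beaded filaments around them, and types XII, XIV and XVI sit on fibril surfaces; in the gut these are made mainly by fibroblasts of the lamina propria. Type IV is the network of every basement membrane, types XV and XVIII carry long sugar chains in basement membrane zones, type VII anchors the membrane to the stroma, and type XVII spans the plasma membrane of epithelial cells at hemidesmosomes. A preparation of pure crypt epithelium would be poor in the fibroblast types.

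Epithelial markers were the highest of the marker lists, and leukocyte markers were also well read. The authors' deposited means of 8 epithelial markers, such as Epcam and Vil1, ran from 15521 to 184435 normalized counts in the 2 tables, those of 6 leukocyte markers from 659 to 4926, and those of 8 fibroblast markers from 5.41 to 373. Over all genes the authors' deposited means add up to 65863261 and 65327199 normalized counts, of which the collagens took 0.00214% and 0.00198%. The highest mean of a collagen was 221, and counting error is large for most of them. Without tetracycline 1 library, fed library 2, stood apart, with summed fibroblast markers at 1146 normalized counts against 255 to 528 in the other 3, and the most of each of the 3 leukocyte markers with recovered values (Cd79a, Lyz2 and Cd52). Nothing in the labels says that the libraries of a side came from separate mice, so p-values measure the spread between these libraries, which may be technical. No column gives the direction of the fold change, and each table's name, which puts fasting first, was taken to mean fasted over fed.

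Without tetracycline, 5 fibroblast collagens fell in fasted mice, while the collagens of epithelium and basement membrane were not called in either direction. In the authors' deposited table, 5 collagens had an adjusted p under 0.05 and all 5 were lower in fasted mice: Col3a1, Col1a2, Col1a1, Col6a2 and Col14a1. They are 5 of the 28 members that carry an adjusted p, and all 5 belong to the 11 interstitial collagens, of which 10 carry one. At an unadjusted p under 0.05, 11 collagens were lower, where 6.21% of all tested genes were. Across the whole table, 1.22% of 18100 genes were called lower in fasted mice and 2.27% in either direction. Of the 10 interstitial collagens with a mean of at least 10, 9 had a log2 change below 0, with a median of -2.64, where 50.2% of all 16863 genes with such a mean were below 0 and their median was -0.0019. In a bulk sample, fewer fibroblasts and less collagen RNA per fibroblast cannot be told apart.

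**Figure D1:**
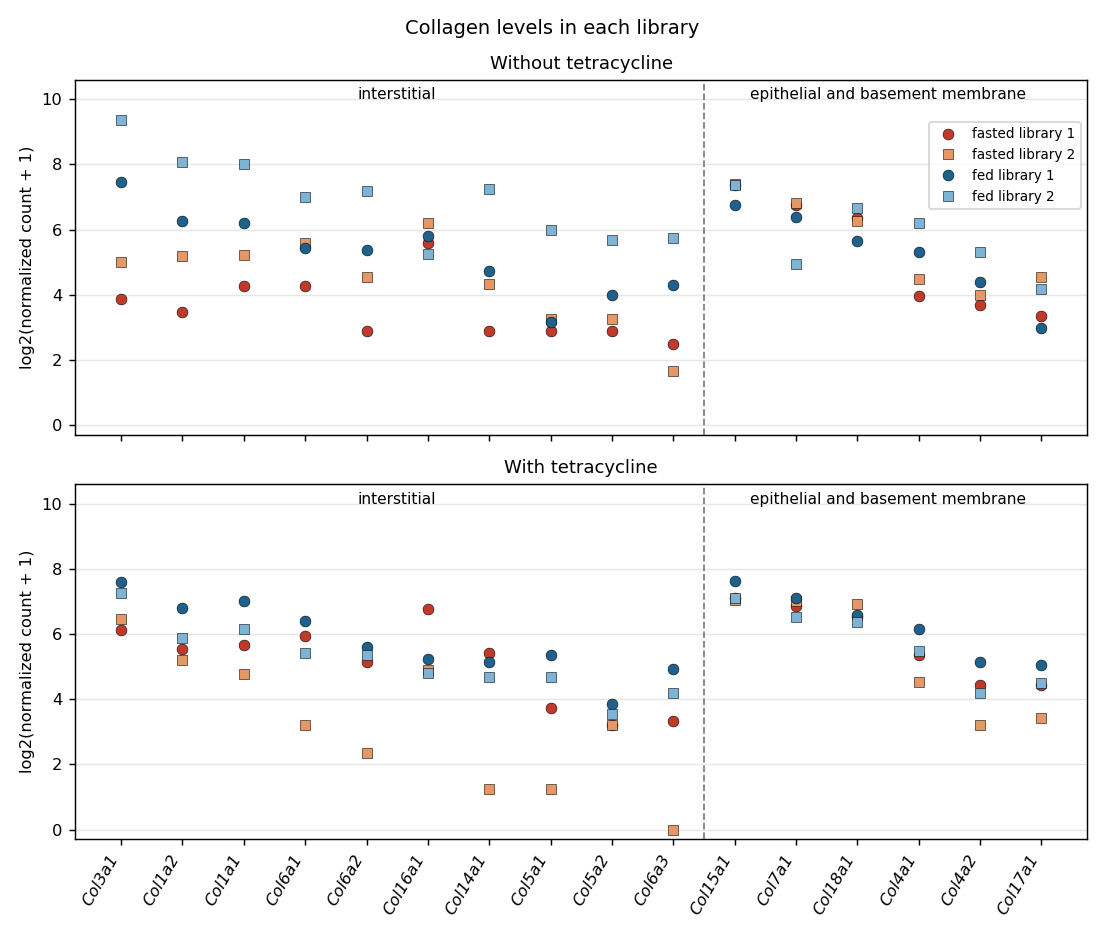
Normalized counts of 16 collagens in each library, on a log2(value + 1) axis, without tetracycline above and with it below. Points are single libraries, red and orange for fasted and dark and light blue for fed, and the dashed line parts interstitial from epithelial and basement membrane collagens. Without tetracycline the blue points of Col3a1, Col1a2 and Col1a1 lie above all red and orange ones, and with it Col6a3 reaches 0 in fasted library 2.

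Col3a1 (ENSMUSG00000026043.19; GRCm38 chr1:45311538-45349706, plus strand) encodes the chain of type III collagen, a fibril of soft tissues. Its exons share 1.44% of their bases with Gm47302 on the same strand. It had 13.8 and 31.2 normalized counts in the fasted libraries and 176.6 and 664 in the fed ones without tetracycline. Both fasted libraries lay far below both fed libraries, and fed library 2 held 78.8% of the fed reads. Its mean was 18.7-fold lower in fasted mice. The authors' deposited table gave a log2 change of -4.24 (SE 0.60, adjusted p 1.58e-09), and without fed library 2 the change was -2.97, or 7.86-fold.

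The chains of type I collagen, the main fibril of connective tissue, fell together. Col1a1 (ENSMUSG00000001506.11; GRCm38 chr11:94936224-94953042, plus strand) had 18.4 and 36.6 normalized counts in the fasted pair of libraries, against 72.4 and 260.2 in the fed pair. Col1a2 (ENSMUSG00000029661.17; GRCm38 chr6:4504814-4541544, plus strand) had 10.1 and 35.5 in the fasted pair of libraries, against 76.4 and 269 in the fed pair. For each gene the fasted and fed libraries did not overlap, and fasted library 1 was the lowest and fed library 2 the highest. The changes in the authors' deposited table were -2.61 for Col1a1 (SE 0.64, adjusted p 0.00439) and -2.93 for Col1a2 (SE 0.69, adjusted p 0.00229). Without fed library 2 they were -1.40 and -1.75.

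Type V collagen, which nucleates fibrils and sets their width, did not pass the test. Col5a2, whose gene lies tail to tail with Col3a1 at a distance of 24614 bases, had 6.42 and 8.60 normalized counts in the fasted pair of libraries, against 14.9 and 50.2 in the fed pair. The authors' deposited table gave it a change of -2.12 (SE 0.96, adjusted p 0.344), and it was -0.99 without fed library 2. Col5a1 had 6.42 and 8.60 in the fasted pair of libraries, against 7.94 and 62.3 in the fed pair, so its groups overlapped and its deposited change of -2.23 (SE 1.05, adjusted p 0.386) rested on fed library 2. Without that library Col5a1 was 1.06-fold lower in fasted mice. The remaining type V chain, Col5a3, was outside the interstitial list and had 1.83 and 3.23 in the fasted pair of libraries, against 12.9 and 34.2 in the fed pair, with no overlap (adjusted p 0.164, by the authors' deposited table).

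The type VI chains form a heterotrimer of Col6a1, Col6a2 and a further chain such as Col6a3. Col6a2 fell, and the other chains did not pass the test. Col6a2 (ENSMUSG00000020241.14; GRCm38 chr10:76595762-76623630, minus strand) had 6.42 and 22.6 normalized counts in the fasted pair of libraries, against 40.7 and 143.7 in the fed pair. Its change in the authors' deposited table was -2.68 (SE 0.78, adjusted p 0.0305), and -1.49 without fed library 2. Col6a1, on the same strand 85161 bases away, had 18.4 and 47.3 in the fasted pair of libraries, against 42.7 and 128.6 in the fed pair. Its groups overlapped, because fasted library 2 was above fed library 1, and it was not called (change -1.39, SE 0.70, adjusted p 0.444, by the authors' deposited table). Without fed library 2 the change of Col6a1 was -0.38, and without fasted library 2 it was -2.22. Col6a3 had 4.59 and 2.15 in the fasted pair of libraries, against 18.9 and 52.2 in the fed pair, without overlap. With a deposited change of -3.38 (SE 1.04) it lay just outside the threshold at an adjusted p of 0.0507, by the authors' deposited table, and Col14a1 just inside it at 0.0478. Without fed library 2 the change of Col6a3 was -2.48, and without fasted library 1 it was -4.05.

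Of the collagens that bind fibril surfaces, Col14a1 fell and the others were not called. Col14a1 (ENSMUSG00000022371.17; GRCm38 chr15:55307750-55520803, plus strand) had 6.42 and 19.4 normalized counts in the fasted pair of libraries, against 25.8 and 149.7 in the fed pair, and 85.1% of its fed reads were in fed library 2. The authors' deposited table gave a change of -2.78 (SE 0.85), and it was -1.0013 without that library. Col16a1 had 47.7 and 72.1 in the fasted pair of libraries, against 54.6 and 37.2 in the fed pair and was the exception among the interstitial collagens with a mean of at least 10, at a change of 0.38 (SE 0.57, adjusted p 0.922, by the authors' deposited table). Col12a1 was almost unread, at 5 or 6 counts in each library. Leaving out fed library 2 took the median of the 10 interstitial changes from -2.64 to -1.16. Without fasted library 2 the change was -4.93 for Col3a1, -4.10 for Col1a2, -3.84 for Col6a2 and -3.77 for Col14a1. Without any one of the 3 libraries other than fed library 2, the changes of the 5 called collagens lay between -4.93 and -2.03. Both fasted libraries lay below both fed ones for 7 of the 10. Of all 6156 genes with a mean of 10 to 250, 21% had both fasted libraries below both fed ones.

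The sequences before the start sites are shown for Col3a1, Col6a3 and Col5a3, the members with the lowest changes among those with a mean of at least 10, and for Col15a1 and Col7a1, basement membrane members that were not called. Each line holds the 150 bases before the RefSeq start on assembly GRCm38.p6, on the strand of the gene, and only windows free of annotated exons were taken. The windows are chr1:45311388-45311537 plus for Col3a1, chr1:90843972-90844121 minus for Col6a3, chr9:20815068-20815217 minus for Col5a3, chr4:47207862-47208011 plus for Col15a1 and chr9:108953436-108953585 plus for Col7a1. Capitals mark 3 motifs on either strand. The letters CCAAT are the core bound by NF-Y. The letters TATAAA match the core of a TATA box, but they were marked anywhere in the window, whatever their distance from the start. The letters GGGCGG are a GC box.
Col3a1: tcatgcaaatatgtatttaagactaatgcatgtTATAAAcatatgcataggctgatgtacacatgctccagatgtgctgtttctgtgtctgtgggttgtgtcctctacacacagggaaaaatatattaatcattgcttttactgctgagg
Col6a3: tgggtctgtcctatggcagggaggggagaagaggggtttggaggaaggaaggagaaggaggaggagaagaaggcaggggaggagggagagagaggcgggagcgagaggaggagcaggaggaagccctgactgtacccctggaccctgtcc
Col5a3: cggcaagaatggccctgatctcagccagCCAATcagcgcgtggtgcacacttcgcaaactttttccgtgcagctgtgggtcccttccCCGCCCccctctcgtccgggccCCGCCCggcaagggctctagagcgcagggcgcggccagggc
Col15a1: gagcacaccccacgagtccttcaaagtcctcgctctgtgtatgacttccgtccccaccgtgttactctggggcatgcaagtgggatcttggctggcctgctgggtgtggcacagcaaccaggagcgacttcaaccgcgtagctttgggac
Col7a1: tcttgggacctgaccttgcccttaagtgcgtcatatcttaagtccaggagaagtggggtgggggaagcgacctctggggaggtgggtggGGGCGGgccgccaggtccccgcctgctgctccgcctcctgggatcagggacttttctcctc
Col3a1 held a TATAAA, at 37.3% G and C, against 62.7% for Col6a3 with no match to any of the 3 motifs. RefSeq promoters matched 34 of the 43 collagens. CCAAT on either strand was in 2 of 8 interstitial promoter windows, 3 of 10 epithelial and basement membrane windows, and 24.5% of 32851 windows of all genes. TATAAA was in 1 of 8, 1 of 10 and 7.57%, and GGGCGG in 2 of 8, 5 of 10 and 28.6%. A match is a description of letters and not a site of binding.

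The epithelial and basement membrane collagens had no shared direction without tetracycline. None of the 7 members with an adjusted p was called by the authors' DESeq2 test, and 1 of 7, Col4a1, had an unadjusted p under 0.05, where 10.8% of all tested genes did. The 6 members with a mean of at least 10 had a median change of 0.18, which was -0.12 without fasted library 2, -0.23 without fed library 1 and 0.51 without fed library 2. The sum over the group was 401 and 428 normalized counts in the fasted pair of libraries, against 314 and 438 in the fed pair. That sum overlapped between fed and fasted libraries, whereas the sum of the interstitial group was 144 and 289 in the fasted pair of libraries, against 536 and 1822 in the fed pair.

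Within this group the ubiquitous type IV chains lay on the side of the interstitial collagens. Col4a1 and Col4a2 encode the common basement membrane heterotrimer from genes that lie head to head on chromosome 8, with first exons that share 22 bases. Col4a1 had 14.7 and 21.5 normalized counts in the fasted pair of libraries, against 38.7 and 72.3 in the fed pair, and Col4a2 had 11.9 and 15.1 against 19.8 and 39.2. Neither gene overlapped between the groups. In the authors' deposited table the changes were -1.62 (SE 0.69, adjusted p 0.285) and -1.13 (SE 0.84, adjusted p 0.724). The kit does not keep the strand, so reads from the 22 shared bases cannot be assigned to either gene. Of the tissue-restricted type IV chains, Col4a5 had a mean of 7.33, Col4a4 of 3.17 and Col4a6 of 0.54 in the authors' deposited table, and Col4a3 had no row without tetracycline.

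The remaining members of this group with a mean of at least 10 lay on the other side or showed no direction. Col7a1 (GRCm38 chr9:108953586-108984875, plus strand), the anchoring fibril collagen, had 108.2 and 111.8 normalized counts in the fasted pair of libraries, against 83.4 and 30.1 in the fed pair. Both fasted libraries were above both fed ones, by a mean of 1.94-fold. That ratio was 3.65-fold without fed library 1 and 1.32-fold without fed library 2. The change of 0.95 in the authors' deposited table was not called (SE 0.56, adjusted p 0.573). Fed library 2 was the lowest of the 4 for Col7a1. Col17a1, the hemidesmosome collagen, was low and overlapped, with 9.17 and 22.6 in the fasted pair of libraries, against 6.95 and 17.1 in the fed pair. The multiplexins Col15a1 and Col18a1 had 166.0 and 166.7 against 107.2 and 164.8, and 81.6 and 76.4 against 49.6 and 101.5, and their changes in the authors' deposited table were 0.29 (SE 0.40) and 0.07 (SE 0.53).

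The other 22 collagens held 10 genes with a mean of at least 10 without tetracycline, and none was called by the authors' DESeq2 test. Col20a1, a fibril-associated collagen, had 141.3 and 88.2 normalized counts in the fasted pair of libraries, against 44.7 and 60.3 in the fed pair and did not overlap. Its change in the authors' deposited table was 1.13 (SE 0.50, adjusted p 0.321). Col9a3, a chain of a cartilage collagen, had 27.5 and 21.5 in the fasted pair of libraries, against 6.95 and 10.05 in the fed pair (adjusted p 0.598, by the authors' deposited table). Exons of Col9a3 share 234 bases, 6.07% of its exon length, with Tcfl5 on the opposite strand, so reads of the 2 genes cannot be told apart there. Col11a2, a fibril chain of cartilage, overlapped at 52.3 and 111.8 against 56.6 and 41.2. Among the 26 collagens of all groups with a mean of at least 10, 4 had both fasted libraries above both fed ones, where 27.4% of genes with a mean of 10 to 250 did. The remaining 10 of these 22 that had a row ranged in mean from 0.48 to 6.42 in the authors' deposited table.

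**Figure D2:**
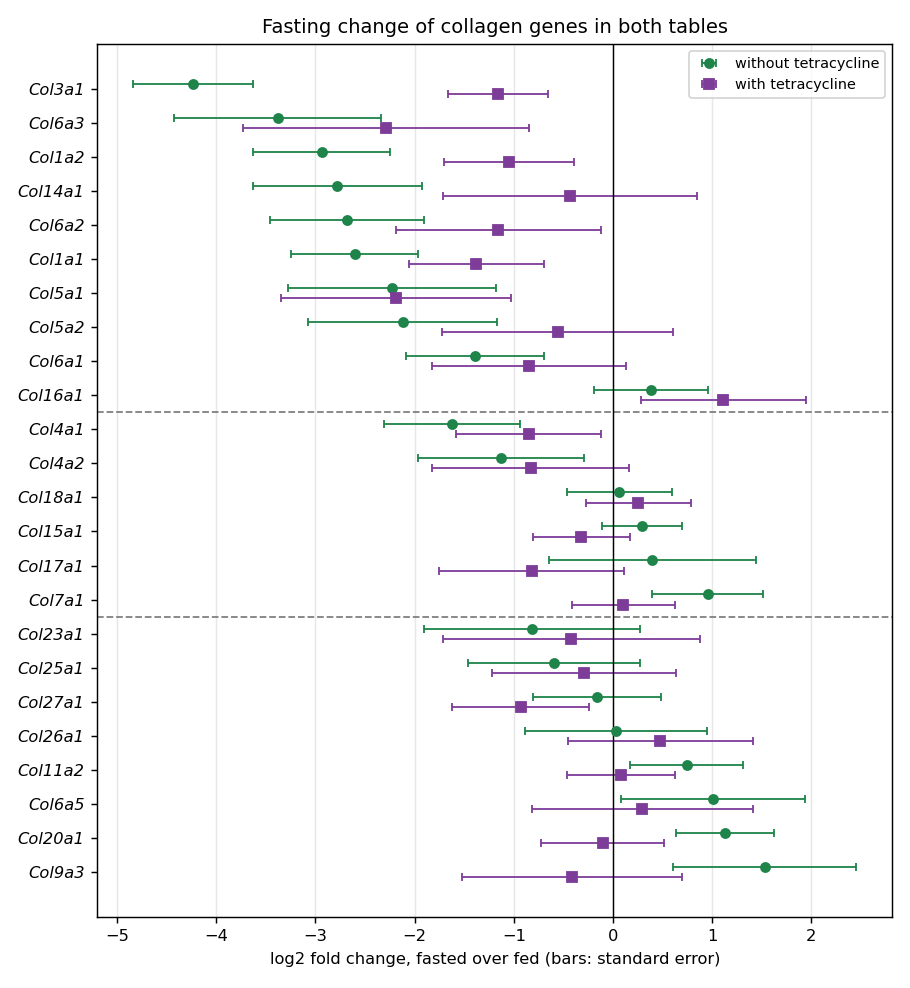
The log2 fold change of fasted over fed for 24 collagens with a mean of at least 10 in both of the authors' deposited tables, without tetracycline as green circles and with it as purple squares; bars are the deposited standard errors. Dashed lines part interstitial, epithelial and basement membrane, and other collagens. Col3a1 lies at -4.24 without and -1.16 with tetracycline.

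With tetracycline, no collagen was called. The authors' deposited table had adjusted p of 0.733 or more for all 26 members that carry one, and DESeq2 called 0.6% of 17993 genes, 0.267% as lower. At an unadjusted p under 0.05 there were 2 members, Col3a1 and Col1a1, both lower in fasted mice, where 5.34% of all tested genes had such a p and 3.06% had it with a lower value in fasted mice. Again 9 of the 10 interstitial collagens with a mean of at least 10 had a change below 0. Their median was -1.10, against -0.017 over all 17174 genes with such a mean, 51.7% of which were below 0.

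Col3a1 with tetracycline had 68.3 and 86.7 normalized counts in the fasted pair of libraries, against 192.1 and 153.2 in the fed pair, without overlap. Its change in the authors' deposited table was -1.16 (SE 0.50, adjusted p 0.733). Col1a1 had 49.4 and 26.1 against 127.6 and 70.1, and Col1a2 had 45.3 and 35.8 against 109.5 and 58.2. For both type I chains the fasted libraries stayed below the fed ones, by a mean of 2.62-fold and 2.07-fold. The changes of -1.38 (SE 0.68) and -1.05 (SE 0.66) in the authors' deposited table were not called, at adjusted p of 0.914 and 0.9999.

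The libraries of each side with tetracycline differed from each other, in collagens and in markers of other cells. Fasted library 2 was lower than library 1 for the smooth muscle gene Myh11 (9.63 against 97.9 normalized counts), the B cell gene Cd79a (22.0 against 702) and the endothelial sum (153 against 522). The fed libraries split as well, with fed library 1 above library 2 for Cd79a (1858 against 366), Thy1 (1001 against 121) and the endothelial sum (814 against 352). Type I and type III chains were closer, with fasted library 2 at 1.27 times library 1 for Col3a1, 0.79 times for Col1a2 and 0.53 times for Col1a1. Chains of type VI, Col5a1 and Col14a1 were few in fasted library 2, while Col5a2 had 8.23 and 8.25. Col6a1 had 60.9 and 8.25 normalized counts in the fasted pair of libraries, against 83.5 and 42.1 in the fed pair. Col6a2 had 34.6 and 4.13 against 48.0 and 39.9, and Col6a3 had 9.05 and 0 against 29.1 and 17.3. Col14a1 had 42.0 and 1.38 in the fasted pair of libraries, against 34.7 and 24.8 in the fed pair, so fasted library 1 was above both fed libraries. The value of 1.38 is 1 read, and the 0 of Col6a3 allows up to 3 reads, or 4.13 normalized counts, from counting error alone. Without fasted library 2 the median interstitial change was -0.69, and without fasted library 1 it was -2.33. Col16a1 ran the other way, at 108.6 and 28.9 against 37.0 and 27.0. Of the 10 interstitial collagens, 7 had both fasted libraries below both fed ones, where 16% of 6296 genes with a mean of 10 to 250 did. No collagen with a mean of at least 10 had both fasted libraries above both fed ones, which 17.4% of those genes did.

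For the epithelial and basement membrane collagens with tetracycline, the groups overlapped for Col7a1 (116.0 and 128.0 fasted, 135.4 and 90.6 fed), Col18a1 (91.3 and 121.1 fasted, 95.3 and 82.0 fed) and Col4a2 (20.6 and 8.25 fasted, 34.7 and 17.3 fed). Col15a1 had 136.6 and 132.1 in the fasted pair of libraries, against 197.7 and 137.0 in the fed pair, so it did not overlap, though fasted library 1 and fed library 2 differed by less than 1 normalized count. Col17a1 had 20.6 and 9.63 against 32.3 and 21.6, and Col4a1 had 40.3 and 22.0 against 70.1 and 43.1, again with the fasted libraries lower. The 6 members with a mean of at least 10 had a median change of -0.57, which became 0.11 when members under a mean of 50 were left out. Among the other collagens, none was called with tetracycline, and the 8 with a mean of at least 10 had changes from -0.93 for Col27a1 to 0.48 for Col26a1 in the authors' deposited table.

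Whether tetracycline altered the fasting change was tested for each gene as the change with minus the change without it, by a Wald test adjusted over 17571 genes. It called none of the 26 tested collagens, at 0.0228% of all genes. At an unadjusted p under 0.05 there were 2 members, Col3a1 and Col1a2, where 1.05% of all genes had such a p. The difference of Col3a1 was 3.07 (SE 0.78, unadjusted p 8.85e-05, Benjamini-Hochberg adjusted p 0.194), and that of Col1a2 was 1.89 (SE 0.95, Benjamini-Hochberg adjusted p 0.99997). All 10 tested interstitial collagens had a difference above 0, with a median of 1.38, against 3 of 6 epithelial and basement membrane collagens and a median of 0.00033 over all tested genes. Without fed library 2 of the table without tetracycline, 8 of the 10 were above 0 and their median was 0.38. The difference of Col3a1 was then 1.81, that of Col1a1 0.02, that of Col6a1 -0.47 and that of Col5a1 -2.10. Without fasted library 1 of the table with tetracycline, 4 of the 10 were above 0 and the median was -0.53, against 9 of 10 and 1.32 with all libraries, both computed with pseudocount 1. These members share libraries, and the list was known to fall without tetracycline, so their common sign is not independent evidence.

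Set side by side across the tables, which were scaled separately, the levels of the interstitial collagens depended on single libraries in both feeding states. The fed mean of Col3a1 was 420 normalized counts without and 173 with tetracycline, and its fasted mean was 22.5 and 77.5. After centring on the median over all genes with a mean of at least 10 and with pseudocount 1, all 10 interstitial collagens were lower with tetracycline in fed mice, by a median of -0.93 on the log2 scale. Without fed library 2 of the table without tetracycline the direction turned: 3 of 10 were lower and 7 higher, and the uncentred median went from -0.89 to 0.16. Col1a1, for example, then had 72.4 normalized counts without and 98.8 with tetracycline. In fasted mice 9 of 10 were higher, by a median of 0.30, and without centring the counts were again 10 and 9. The fasted direction did not hold without fasted library 1 of either table: uncentred, 3 of 10 were higher without that of the table with tetracycline (median -1.31), and 5 of 10 without that of the other table (median -0.01). The 6 epithelial and basement membrane collagens had medians of 0.23 in fed and 0.05 in fasted mice. These levels were not tested.

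Per length, the order of the collagens differed with the feeding state. Levels here are normalized counts per 1000 exon bases of the annotation. In fed mice without tetracycline Col3a1 was highest at 42.8, then Col1a1 at 25.3, Col15a1 at 21.4, Col6a1 at 19.6 and Col1a2 at 13.9. In fasted mice without tetracycline the means were 26.2 for Col15a1, 22.3 for Col20a1, 11.9 for Col11a2, 11.3 for Col18a1 and 10.7 for Col7a1, with 2.29 for Col3a1. The libraries of a side spread too widely to order most neighbours. Col1a1 and Col15a1 overlapped in fed mice, and Col15a1 and Col20a1 in fasted mice (26.2 and 27.5 in fasted library 1). Col11a2 overlapped with both Col18a1 and Col7a1 in fasted mice, where both libraries of Col18a1 lay narrowly above both of Col7a1. With tetracycline the mean of Col15a1 was highest in both states, at 26.4 in fed and 21.2 in fasted mice, with Col20a1 next at 19.1 and 17.8, though in fasted library 2 Col20a1 was above it (24.6 against 20.8).

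**Figure D3:**
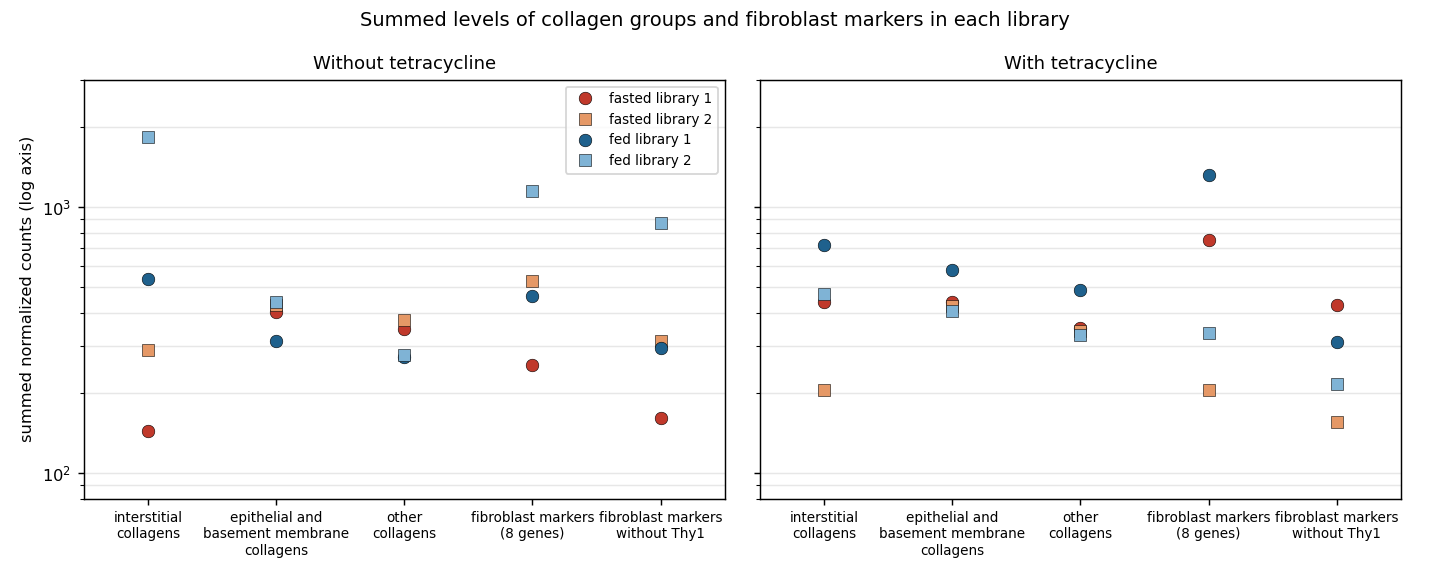
Summed normalized counts per library, on a log axis, of the 3 collagen groups, of 8 fibroblast markers and of the same markers without Thy1; panels are without (left) and with (right) tetracycline. Points are single libraries, colored as in the plot of collagen levels. Without tetracycline the interstitial sums run from 144 to 1822 and the epithelial and basement membrane sums from 314 to 438.

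Markers of the cells that make interstitial collagen moved with it in part. Without tetracycline the 8 fibroblast markers, among them Dcn, Lum and Pdgfra, summed to 255 and 528 normalized counts in the fasted pair of libraries, against 461 and 1146 in the fed pair. All 7 with a mean of at least 10 had a change below 0, with a median of -1.26, and DESeq2 called none, where it called 2.27% of all tested genes. At an unadjusted p under 0.05 there were 5 of the 8, against 10.8% of all tested genes, and the lowest adjusted p in the authors' deposited table was 0.0547, for Dpt. With tetracycline the sums were 750 and 205 in the fasted pair of libraries, against 1311 and 337 in the fed pair, 3 of 6 such markers were below 0, and Thy1, which mouse T cells also express, gave 1001 of the 1311. In both tables the fibroblast sums of fasted and fed libraries overlapped. Smooth muscle and pericyte markers summed to 259 and 342 in the fasted pair of libraries, against 256 and 235 in the fed pair without tetracycline, and endothelial markers to 271 and 439 against 413 and 411. With tetracycline the smooth muscle sums were 432 and 227 against 465 and 305, and 5 of 6 such markers with a mean of at least 10 were below 0, with a median change of -0.68. Endothelial sums were then 522 and 153 against 814 and 352, and 4 of 6 were below 0, with a median of -0.79. Pecam1, which some leukocytes also express, was a large part of the endothelial sum. All 6 leukocyte markers had a change below 0 in both tables, as had 50.2% and 51.7% of all genes with a mean of at least 10. Of them 3, Cd79a, Lyz2 and Cd52, were called lower without tetracycline, where 1.22% of all tested genes were. With tetracycline none was called, where 0.6% of all tested genes were called in either direction. At an unadjusted p under 0.05 there were then 3 of the 6, against 5.34% of all tested genes. The part of these cells in the collagen result was not tested.

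Of 28 listed genes that process collagen without tetracycline, 20 carry an adjusted p and 1 of them fell, where 2.27% of all tested genes were called. Sparc, a collagen-binding matrix protein, had 22.9 and 64.5 normalized counts in the fasted pair of libraries, against 73.4 and 333 in the fed pair (change -2.22, SE 0.68, adjusted p 0.0466, by the authors' deposited table). It was 4.66-fold lower in fasted mice, 1.68-fold without fed library 2, 7.605-fold without fed library 1 and 8.85-fold without fasted library 2. Serpinh1, the chaperone of the collagen triple helix, had 13.8 and 28.0 against 22.8 and 160 and was not called (adjusted p 0.192, by the authors' deposited table). With tetracycline 1 of 21 rose, where 0.6% of all tested genes were called. It was P3h4, a partner of collagen-modifying enzymes, which went from 51.2 and 65.8 in fed to 253 and 175 in fasted libraries. Its change of 1.88 (SE 0.52) had an adjusted p of 0.0495, by the authors' deposited table, and without tetracycline it was 1.53 (adjusted p 0.0971). The median change of the processing genes was -0.08 without and -0.15 with tetracycline.

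Among receptors and enzymes of collagen breakdown, 1 rose and 1 fell of 16 tested without tetracycline, and none was called of 15 with it, where 2.27% and 0.6% of all tested genes were. Mmp7, matrilysin, which Paneth cells make to activate defensins, rose by 2.07 on the log2 scale (SE 0.26, adjusted p 1.72e-12, by the authors' deposited table). Mmp9, a gelatinase of leukocytes, had 10.1 and 38.7 normalized counts in the fasted pair of libraries, against 97.3 and 174.8 in the fed pair and fell by 2.49 on that scale (SE 0.64, adjusted p 0.00758, by the authors' deposited table). Its fall of 5.62-fold was 3.51-fold without fasted library 1 and 13.5-fold without fasted library 2. With tetracycline the changes of Mmp7 and Mmp9 were 1.93 and -2.92, at adjusted p of 0.246 and 0.0518, by the authors' deposited table.

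Non-collagen partners at the basement membrane were called in both directions. Of 20 with an adjusted p without tetracycline, 1 rose and 2 fell, where 2.27% of all tested genes were called. Lama5, a laminin chain of epithelial basement membranes, had 458 and 374 normalized counts in the fasted pair of libraries, against 147 and 198 in the fed pair (change 1.27, SE 0.34, adjusted p 0.0136, by the authors' deposited table). Nid1, nidogen, which links laminin to type IV collagen, had 21.1 and 23.7 against 45.7 and 165 (change -2.23, SE 0.67, adjusted p 0.0423, by the authors' deposited table). It was 4.70-fold lower in fasted mice, 2.04-fold without fed library 2 and 7.36-fold without fed library 1. Pxdn, peroxidasin, which cross-links type IV collagen, had 49.5 and 37.6 against 117 and 153 (change -1.63, SE 0.47, adjusted p 0.0297, by the authors' deposited table). Lama5 thus rose while Nid1 and Pxdn fell, and for these 3 genes fasted and fed libraries did not overlap. With tetracycline 1 of 19 was called, against 0.6% of all tested genes: Lamb3, a laminin chain of hemidesmosomes, at a change of 2.03 (SE 0.37, adjusted p 4.2e-05) against 0.98 (SE 0.32, adjusted p 0.0725) without it in the authors' deposited tables. The Wald test of the difference called no gene of these 3 lists.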

How the data were processed

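RNA-seq tables of the authors' own fasting comparisons were analysed, 1 per tetracycline state. Salmon, DESeq2 and the build mm10 are named, without versions or roles, in the submitters' processing notes; the annotation release is not given in the sources used here. Per the file headers, the authors' columns are those of DESeq2: a mean signal of normalized counts, a log2 fold change with its standard error, a score (their ratio) and p-values with a Benjamini-Hochberg adjustment. There were 0 unused per-sample columns. The design expected comparisons in this form, so no test was replaced.

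Each deposited mean can be written as whole counts, each multiplied by a step of its library. The 4 steps per table, 2 on each side, were read from the lowest means, and 100.0% of 14815 and 15207 genes with a mean up to 250 gave exactly 1 set of whole counts, within rounding of the deposited digits. Listed genes were decoded up to a mean of 1000. Fold changes from these counts differed from the deposited ones by a median of 0.0022 and 0.0087. The largest size factor was 1.17 and 1.75 times the smallest. Whole counts may be rounded estimates. Library 1 of a side has the larger size factor. No column names a library, so they are single values with no SD and no test, and single-library intervals cover counting error only.

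Calls use the authors' adjusted p under 0.05 over the whole table. The difference test sets the difference of the changes against its standard error, from those of both tables taken as independent (two-sided normal p). Both scripts were tested on simulated data. For the difference test the simulated noise had the same standard errors that the test divides by. That simulation therefore checks the computation and cannot show whether the deposited standard errors fit the real spread. Medians use members with a mean of at least 10. Exon lengths and coordinates are from GENCODE mouse release 21 (GRCm38, the same build as mm10), matched by gene identifier without version, and sequences are from RefSeq (GRCm38.p6). Members, groups and 9 further gene lists were chosen with earlier results of these data known. Members with a mean of at least 100 or a call are described for each library; the other collagens are named where a group needs them, and genes of other lists where called, with a few marker and chaperone genes chosen after their values were seen. Alternatives changed the threshold, the filter, the pseudocount, the centring and the libraries. Python 3.11.15, pandas 2.3.3 and scipy 1.17.1 were used.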

Additional observations from a re-analysis of the deposited data

Results flagged for a closer look

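Col15a1, a basement membrane collagen, met the rule for opposite directions in the 2 tables. Without tetracycline both fasted libraries (166.0 and 166.7 normalized counts) lay above both fed ones (107.2 and 164.8), and with it both (136.6 and 132.1) lay below (197.7 and 137.0). The gaps between the nearest libraries were small. The change with minus without tetracycline was -0.61 (SE 0.63), with a Benjamini-Hochberg adjusted p of 0.99997 in the Wald test over all genes.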

How the results depend on the processing

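Calls without tetracycline were 5, and 3 at an adjusted p under 0.01, where Col6a2 and Col14a1 are lost. They were 6 at 0.1, 6 when adjusted over rows with a mean of at least 10 and 4 over all rows. With tetracycline, and for the difference of the changes, 0 collagens were called in each of the 4 alternatives. The interstitial median without tetracycline ran from -3.21 to -1.16 when each library was left out, and with tetracycline from -2.33 to -0.69, always below 0. The epithelial and basement membrane median without tetracycline ran from -0.23 to 0.51, below 0 without fasted library 2 (-0.12) or fed library 1 (-0.23). With tetracycline it ran from -0.83 to -0.14, and it was 0.11 with a mean of at least 50. The other filters, pseudocount 1 and centring moved these medians by less than the spread between libraries. Alternatives chosen after seeing the data left each library out for the called genes: Col3a1 ran from -4.93 to -2.97, Col1a2 from -4.10 to -1.75, Col1a1 from -3.24 to -1.40, Col6a2 from -3.84 to -1.49 and Col14a1 from -3.77 to -1.0013. Without fed library 2 of the table without tetracycline, also chosen after seeing the data, the uncentred median of interstitial levels in fed mice, with over without tetracycline, turned from -0.89 to 0.16, and the median difference of the fasting changes went from 1.38 to 0.38. Leaving out each of the 8 libraries, with pseudocount 1, moved the median level in fasted mice from 0.37 to between -1.31 and 0.94, and the median difference from 1.32 to between -0.53 and 1.96. Calls could not be refitted without a library. No paired analysis was possible because the labels give no replicate numbers and the tables no libraries by name.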

Other observations

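The summed interstitial collagens were set against the summed fibroblast markers of the same library, a ratio in which depth and scaling cancel. Without tetracycline it was 0.56 and 0.55 in the fasted pair of libraries, against 1.16 and 1.59 in the fed pair. With tetracycline it was 0.58 and 1 in the fasted pair of libraries, against 0.55 and 1.40 in the fed pair, and overlapped. Thy1 was left out as an alternative chosen after seeing the data, because mouse T cells express it. The ratio was then 0.90 and 0.92 in the fasted pair of libraries, against 1.81 and 2.11 in the fed pair without tetracycline, and 1.02 and 1.32 in the fasted pair of libraries, against 2.31 and 2.19 in the fed pair with it, without overlap in either table. When Dcn was left out as well, it was 1.54 and 2.42 against 2.62 and 3.79, and 3.15 and 1.69 against 3.96 and 3.39. With 2 libraries a side no test was run.

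Fed library 2 without tetracycline held more than fed library 1 of 9 of the 10 interstitial collagens with a mean of at least 10, from 2.77 times for Col6a3 to 7.85 times for Col5a1. The exception was Col16a1, at 0.68 times. The epithelial and basement membrane collagens with such a mean ranged from 0.36 times for Col7a1 to 2.46 times for Col17a1. Their median was 1.92 times, and 5 of these 6 were also higher in fed library 2.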
